A study of Oryzias latipes with 20 samples.

Results

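The genes described here carry the symbols of DNA replication and cell division factors, measured in the brain of medaka (Oryzias latipes), a small teleost fish. They were chosen by symbol alone, as the families of the replication helicase (mcm), the origin recognition complex (orc), the gins proteins, the replicative polymerases and their clamp, the cyclins and cyclin-dependent kinases (CDKs), and the kinases, motors, centromere proteins and condensins of mitosis. Of 22615 genes in the deposited table, 129 matched these symbols, and the 118 with a mean of at least 0.3 FPKM over all libraries are the set. FPKM counts the fragments of a transcript per kilobase of its length, scaled to the fragments of the library. Roles were given by symbol family, so a gene can sit in a role in which it does not act. By this rule 88 of the 118 are called division genes. They are 18 in origin licensing and the helicase, 17 in DNA synthesis, 11 among the cyclins, CDKs and the CDK phosphatase cdc25b, and 42 in mitosis and chromosome structure. The other 30 matched by the start of a symbol and were set apart as acting mainly elsewhere, as the binding proteins of the small GTPase Cdc42 do. Some of them, such as plk2, plk3 and cdc14a, belong to families with links to division, so the 30 are not a set free of it.

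Each sample was a block of brain that joined the hypothalamus, the pituitary and the lower side of the telencephalon. The series description places the fish under a photoperiod that did not change. The 6 later groups were taken at days 7, 30, 60, 90, 120 and 150 after a transition to conditions abbreviated LW in the labels, and the group they are set against was taken at day 0. Day 60 had 2 samples and every other day 3, giving 20 libraries over 7 days. The labels do not say what LW means or whether the transition itself changed the photoperiod. The treatment label differs between groups only in the number of days after the transition. A difference from day 0 therefore may mix time spent in the new conditions, any difference in age and the occasion of sampling. These cannot be told apart. The sources used here give no age, sex, hour of sampling or pooling of fish, and the labels do not say that samples came from separate fish, so p-values measure only the spread between these samples.

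Before a cell divides, the origin recognition complex and Cdc7 kinase prepare a ring-shaped helicase built of Mcm proteins, and the gins proteins join it as it starts to unwind DNA. DNA polymerases held on by the PCNA clamp, which replication factor C loads, then copy the strands. Cyclins A and B with Cdk1 drive entry into mitosis, where condensins and topoisomerase 2 compact the chromosomes, Aurora and Polo kinases act on the spindle and Cdc20 triggers the separation of sister chromatids. Teleost brains keep radial glia that divide throughout life, along the ventricles of the telencephalon and hypothalamus among other zones, and such cells are a small part of a dissected block.

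Several facts of the whole series bear on these genes. The libraries summed to between 374770 and 405678 FPKM. Their read depth is unknown, so the precision of a single value is unknown too. Only the spread between the few samples of each day could be measured. Of the pituitary markers 9 of 11 names were matched, none of them at 0 in any library except prl, which was listed at 0 in 16 of 20 libraries. Their summed level ran from 156.92 FPKM in day 60 replicate 1 to 4951.18 FPKM in a library of day 150. For the 18 names of radial glia and progenitor markers 11 genes were matched, with sums between 1045.97 and 1910.82 FPKM. In blocks of mixed tissue, fewer dividing cells and less RNA per dividing cell cannot be told apart.

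Division transcripts were low in these blocks, and none of the 118 genes changed past the threshold on any day. By day of the highest mean, 30 of the 88 division genes, or 34.1%, stood at day 0, beside 11% of all genes tested. Among them were 16 of the 42 mitotic genes, or 38.1%, and 8 of the 18 licensing genes, or 44.4%. So were 4 of the 11 cyclins and CDKs, or 36.4%, but only 2 of the 17 synthesis genes, or 11.8%. The other division genes had their highest mean at later days. Of the 13 division genes of a list of common markers, 10 had their highest mean at day 0, beside the same 11% of all genes, and pcna, ccnd1 and bub1 did not. That list was chosen with earlier results of these data known. Without day 0 replicate 3 the 10 became 8, beside 13.1% of all genes. Then aurkb was highest at day 150 and cdk1 at day 120, with 4.24 FPKM at day 120 against 3.94 FPKM at day 0. The licensing gene mcm7 and the synthesis genes pold2 and pold3 were highest at day 150. The tests used limma on log2(FPKM + 1), with p-values adjusted by Benjamini-Hochberg over the 18373 genes that averaged 0.3 FPKM or more, and a threshold of 0.05. The change of a gene at a low level is understated on that scale. In the identifiers of the table, top2a is 101158729, mcm2 101173930, mcm7 101165815, pold3 101156197, cdk1 100049478 and ccnb1 100049212.

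Over all 7 days 0 of 118 genes passed, against 16 of all genes tested, or 0.0871%. The smallest adjusted p among them was 0.142, for the kinase gene cdk19. At an unadjusted p under 0.05 stood 11 of the 118, which is 9.32% of them beside 12.5% of all genes tested. Among days 7 to 150 the count was again 0, beside 0.0871% of all genes, with a smallest adjusted p of 0.12 and 12 genes at an unadjusted p under 0.05, which is 10.2% of the 118 beside 12.5% of all genes. The slope per 30 days also called 0 of 118, beside 0.00544% of all genes. At an unadjusted p under 0.05 there were 8 positive slopes, beside 6.83% of all genes, and 2 negative ones, beside 3.68%.

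Each later day was then set against day 0, and the 6 comparisons share the 3 libraries of day 0. For genes named by a fixed rule, the main comparison described below was the one with the smallest unadjusted p. Their intervals and any lack of overlap between groups were favoured by that choice. limma called 0 of 118 genes at day 7 (0.0544% of all genes), at day 30 (0%), at day 60 (0.00544%), at day 90 (0%), at day 120 (0.0163%) and at day 150 (0%). At day 7 an unadjusted p under 0.05 was reached by 5 higher genes, beside 4.2% of all genes, and by 11 lower genes, which is 9.32% of the 118 beside 4.35% of all genes. At day 60 it was reached by 1 higher gene, beside 3.61% of all genes, and by 10 lower genes, which is 8.47% beside 3.23%. At day 150 the counts were 10 higher genes, which is 8.47% beside 5.99%, and 2 lower genes beside 3.28%. At day 30 they were 3 higher and 9 lower, beside 5.14% and 3.21% of all genes. Day 90 had 3 higher and 4 lower genes, beside 5.02% and 3.17%, and day 120 had 5 higher and 3 lower, beside 5.68% and 3.41%.

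These genes had lower levels than genes in general. The median over the 118 was 2.07 FPKM, against 7.30 FPKM over all genes tested. Genes of DNA synthesis had a median of 5.01 FPKM, those of licensing 1.94, the cyclins and CDKs 1.77 and those of mitosis 0.94, while the 30 genes of other functions had a median of 11.7 FPKM. Of the 42 mitotic genes 23 had a mean under 1 FPKM. The spread between libraries of the same day had a median SD of 0.161 on the log2 scale over the 118, against 0.164 over all genes tested. That value pools unlike roles. The median was 0.195 for cyclins and CDKs, 0.182 for mitosis and for licensing and 0.169 for synthesis, but 0.125 for the 30 genes of other functions. These medians do not allow for level, in which the roles differ. Among genes with means within 1 of its own on the log2 scale, the share with a larger spread differed from gene to gene. It was 80.5% for top2a and 61.3% for mcm2, but 36.3% for cdk1 and 12.9% for pcna. At the edge of the set, cenpf, ncaph2 and mcm10 were just inside with means of 0.319, 0.401 and 0.403 FPKM. The cyclin gene ccne2, the origin recognition gene orc1 and the helicase partner cdc45 were just outside with 0.286, 0.279 and 0.278 FPKM.

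**Figure D1:**
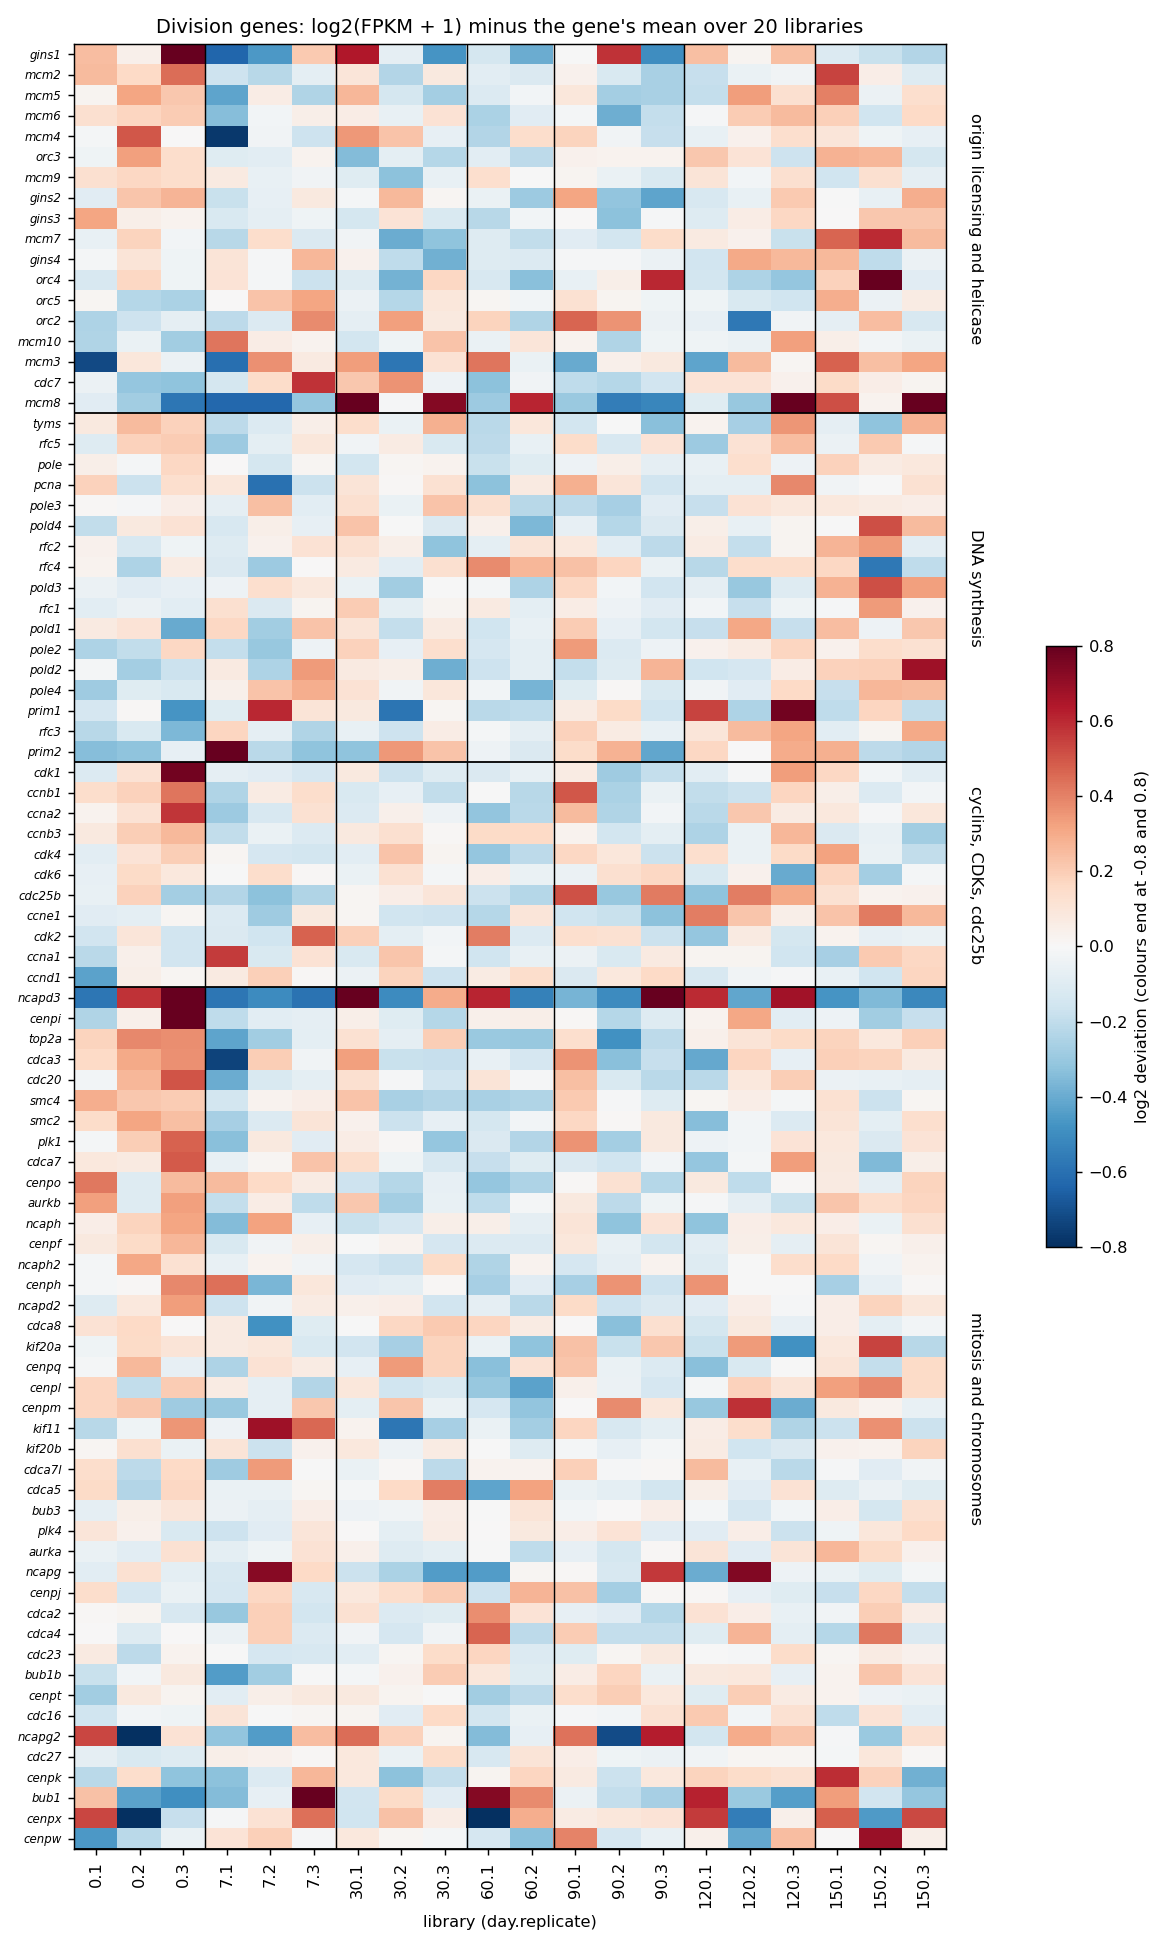
Heat map of the 88 division genes (down the page, by role and, within a role, in order of their mean deviation at day 0) in the 20 libraries (across, day and replicate). Colour is the log2(FPKM + 1) value minus the gene's mean over all libraries, red above it and blue below it, ending at 0.8 either side. The order of the genes sets the gradient seen at day 0, and most rows are pale.

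Among the licensing and helicase genes, mcm2 and mcm5 were lower at day 7 than at day 0, mcm7 was higher at day 150, and the differences did not pass the threshold. Mcm2 and Mcm5 are subunits of the helicase ring. mcm2 measured 2.43, 2.30 and 2.64 FPKM at day 7, against 3.58, 3.29 and 4.25 FPKM at day 0. The groups did not overlap. All libraries of days 30, 60, 90 and 120 also lay below day 0 for mcm2, at 3.11 FPKM or less. Day 150 held the highest value of all, 4.60 FPKM, beside a lowest of 2.58 FPKM. The log2 difference of mcm2 at day 7 was -0.44 (95% interval -0.75 to -0.13), with an adjusted p of 0.376 from limma. mcm5 measured 1.13, 1.98 and 1.42 FPKM at day 7, against 1.90, 2.55 and 2.31 FPKM at day 0, with 1 library of day 7 inside the range of day 0. Its log2 difference was -0.38 (interval -0.77 to -0.00), with an adjusted p of 0.584.

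mcm7, another subunit of the ring and the licensing gene with the highest mean (8.25 FPKM), measured 11.57, 12.79 and 9.87 FPKM at day 150, against 7.75, 9.29 and 7.96 FPKM at day 0. All 3 libraries of day 150 lay above the 17 others, whose highest value was 9.29 FPKM. The log2 difference was 0.41 (interval 0.14 to 0.68), and the adjusted p was 0.398. cdc7, the kinase that activates licensed helicases, measured 0.86, 1.27 and 2.05 FPKM at day 7, against 0.98, 0.65 and 0.64 FPKM at day 0. These groups overlapped, the log2 difference was 0.42 (interval 0.09 to 0.76), and the adjusted p was 0.458. Without day 7 replicate 3 the difference was 0.23. Over the 18 licensing genes the median log2 difference was -0.17 at day 7, against -0.000479 over all genes tested, and 12 genes were negative, which is 66.7% beside 50.1%. At day 150 it was 0.00, with 9 genes negative, which is 50% beside 44.6%.

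mcm8, which encodes an Mcm protein that acts in recombination outside the ring, varied most between libraries of 1 day in this role. It measured 4.36, 1.70 and 3.53 FPKM at day 30, against 1.55, 1.24 and 0.82 FPKM at day 0. All 3 values of day 30 lay above those of day 0, and the log2 difference was 0.89 (interval 0.20 to 1.57), with an adjusted p of 0.481. Over the series 14 libraries stood at 0.76 to 1.77 FPKM and 6 at 2.89 to 4.36 FPKM. The 6 high libraries came from days 30, 60, 120 and 150, and no day except 30 and 150 held more than 1 of them.

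In the synthesis group the means ran from the polymerase epsilon catalytic gene pole at 0.589 FPKM to pcna at 29.8 FPKM. pcna encodes the sliding clamp and is also used in repair. It measured 31.40, 19.10 and 25.98 FPKM at day 7, against 33.61, 26.08 and 32.42 FPKM at day 0. The groups overlapped, the log2 difference was -0.28 (interval -0.64 to 0.08), and the adjusted p was 0.675. Leaving out day 7 replicate 2 gave -0.09, and leaving out replicate 1 of that day gave -0.44. Its day means stayed between 25.5 and 31.5 FPKM.

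pold3, an accessory subunit of polymerase delta, measured 11.22, 13.40 and 11.66 FPKM at day 150, against 8.77, 8.48 and 8.65 FPKM at day 0. No other library of the series exceeded 10.31 FPKM, so the 3 libraries of day 150 were the highest of the 20. The log2 difference was 0.44 (interval 0.22 to 0.66), with an adjusted p of 0.257, the smallest among the 118 genes at that day. pold2, the subunit that binds it, measured 6.83, 6.88 and 10.04 FPKM at day 150, against 5.82, 4.72 and 5.12 FPKM at day 0. Again without overlap, the log2 difference was 0.50 (interval 0.13 to 0.87), and the adjusted p was 0.421.

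rfc3, a subunit of the clamp loader, measured 5.38, 6.11 and 6.42 FPKM at day 120, against 4.12, 4.49 and 3.64 FPKM at day 0. No library of day 120 fell in the range of day 0, the log2 difference was 0.46 (interval 0.20 to 0.71), and the adjusted p was 0.301. Its day means were 4.08, 4.81, 4.74, 4.78, 5.25, 5.97 and 5.35 FPKM in the order of days, and the slope of 0.06 per 30 days had an adjusted p of 0.269, the smallest slope p of the 118. pole4, a small subunit of polymerase epsilon, measured 16.63, 19.08 and 19.91 FPKM at day 7, against 13.06, 15.01 and 14.76 FPKM at day 0. It too did not overlap, with a log2 difference of 0.35 (interval 0.10 to 0.61) and an adjusted p of 0.386. tyms, thymidylate synthase, which makes the thymidine nucleotide, measured 1.07, 1.29 and 0.82 FPKM at day 90, against 1.42, 1.74 and 1.61 FPKM at day 0. Its groups did not overlap either, and the log2 difference was -0.33 (interval -0.70 to 0.03), with an adjusted p of 0.646.

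By role, 13 of the 17 synthesis genes had a positive difference at day 150, which is 76.5% beside 55.4% of all genes tested, with a median of 0.19 on the log2 scale, against 0.02 over all genes tested. Of the 17, 8 had their highest day mean at day 150, which is 47.1% beside 19% of all genes tested, and 2 at day 0, which is 11.8% beside 11%. The mean deviation of the group, on the log2 scale, was 0.07, 0.10 and 0.12 in the libraries of day 150, against -0.07, -0.06 and -0.04 in those of day 0. All 3 libraries of day 150 lay above all 3 of day 0. The highest library of the series was day 120 replicate 3, at 0.16, and day 90 replicate 1, at 0.068, stood above day 150 replicate 1, at 0.065. Over all genes tested the same measure was 0.02, 0.02 and -0.01 at day 150, against -0.02, -0.01 and 0.00 at day 0.

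**Figure D2:**
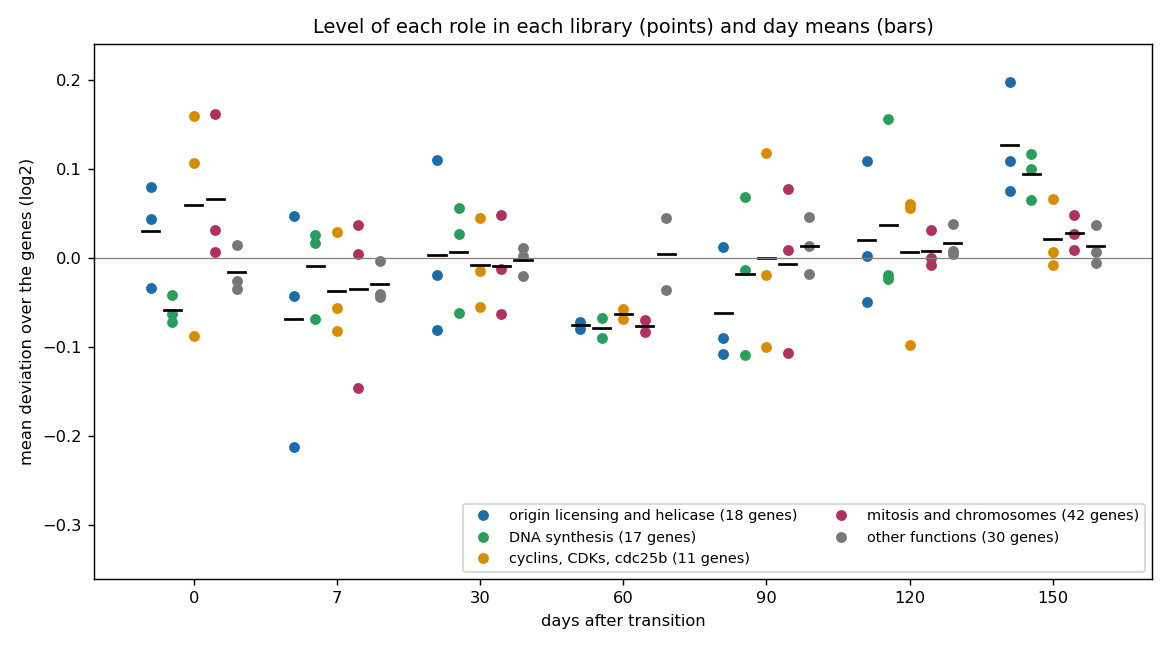
Mean deviation from each gene's mean over all libraries, on the log2(FPKM + 1) scale, for the genes of each role (colours) by day after transition. Each point is 1 library and each bar a day mean. The synthesis genes are at -0.07 to -0.04 at day 0 and at 0.07 to 0.12 at day 150, and the 4 division roles all lie below 0 in both libraries of day 60.

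The cyclin and CDK group held both the broadly used ccnd1, cdk4, cdk6 and cdk2 and the mitotic pairs. ccnd1 encodes cyclin D1, which acts early in the cycle and is also present in cells that do not divide, and had the highest mean of the group, 12.5 FPKM. It measured 13.13, 14.36 and 12.54 FPKM at day 7, against 9.02, 12.92 and 12.59 FPKM at day 0. The groups overlapped, the log2 difference was 0.21 (interval -0.06 to 0.48), and the adjusted p was 0.664. Without day 0 replicate 1, its lowest library of that day, the difference was 0.06. Its partners cdk4 and cdk6 had means of 7.22 and 2.58 FPKM. Cdk2, the partner of cyclins A and E, had a mean of 1.83 FPKM.

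cdk1, the mitotic kinase, measured 4.15, 3.03 and 3.31 FPKM at day 90, against 3.56, 4.32 and 7.38 FPKM at day 0. The groups overlapped, and the 7.38 FPKM of day 0 replicate 3 was the highest value in the series. The log2 difference was -0.39 (interval -0.77 to -0.02), with an adjusted p of 0.596, and it was -0.14 without that library. ccna2, cyclin A, measured 0.51 and 0.62 FPKM at day 60, against 0.92, 1.04 and 1.79 FPKM at day 0. Both libraries of day 60 lay below day 0, the log2 difference was -0.50 (interval -0.89 to -0.12), and the adjusted p was 0.626.

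ccnb1, cyclin B1, measured 0.33, 0.38 and 0.26 FPKM at day 30, against 0.59, 0.64 and 0.94 FPKM at day 0. All 3 libraries of day 30 lay below day 0, while day 90 replicate 1, at 1.04 FPKM, was the highest of all 20 libraries. The log2 difference was -0.38 (interval -0.75 to -0.01), with an adjusted p of 0.589. ccnb3, another B-type cyclin, measured 0.52, 0.58 and 0.36 FPKM at day 150, against 0.74, 0.89 and 0.97 FPKM at day 0. Its groups did not overlap, the log2 difference was -0.33 (interval -0.59 to -0.07), and the adjusted p was 0.46. ccne1, cyclin E, which acts at the start of replication, had the opposite order, with 2.22, 2.66 and 2.28 FPKM at day 150, against 1.58, 1.60 and 1.77 FPKM at day 0. Its slope was 0.07 log2 per 30 days (interval 0.02 to 0.12), with an adjusted p of 0.294.

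In the mitotic group top2a came nearest to the threshold. Topoisomerase 2 alpha untangles and compacts replicated chromosomes. top2a measured 0.35, 0.49 and 0.71 FPKM at day 7, against 1.04, 1.36 and 1.34 FPKM at day 0. The groups did not overlap, and the means were 0.517 ± 0.18 FPKM at day 7 and 1.25 ± 0.18 FPKM at day 0 (SD, n = 3 each). The log2 difference was -0.57 (interval -0.87 to -0.27), with an adjusted p of 0.194, the smallest of the 118 genes at day 7. At day 60 top2a stood at 0.47 and 0.46 FPKM, with a log2 difference of -0.61 (interval -0.95 to -0.28) and an adjusted p of 0.465. In the order of days its other libraries were 0.96, 0.72 and 1.07 FPKM at day 30, 0.98, 0.29 and 0.56 at day 90, 0.86, 0.94 and 1.01 at day 120, and 1.04, 0.91 and 1.06 at day 150. The 0.29 FPKM of day 90 was the lowest value of the series.

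cdc20, the activator of the complex that ends metaphase, measured 0.33, 0.61 and 0.66 FPKM at day 7, against 0.73, 1.11 and 1.48 FPKM at day 0. All 3 libraries of day 7 lay below day 0, the log2 difference was -0.45 (interval -0.79 to -0.11), and the adjusted p was 0.416. plk1, the Polo kinase of mitotic entry, measured 0.59 and 0.47 FPKM at day 60, against 0.71, 0.98 and 1.39 FPKM at day 0. It too did not overlap, with a log2 difference of -0.39 (interval -0.79 to 0.01) and an adjusted p of 0.737. aurkb, the Aurora kinase that corrects faulty chromosome attachment, measured 0.69, 1.01 and 0.68 FPKM at day 7, against 1.43, 0.80 and 1.42 FPKM at day 0. Here 1 library of day 0 lay inside the range of day 7, and the log2 difference was -0.30 (interval -0.61 to 0.01), with an adjusted p of 0.599.

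bub1, a kinase of the spindle checkpoint, ran the other way at day 60, with 3.14 and 2.24 FPKM, against 1.93, 0.85 and 0.77 FPKM at day 0. Libraries of other days also reached such values, 3.47 FPKM at day 7 and 2.82 FPKM at day 120. The log2 difference was 0.79 (interval 0.06 to 1.51), and the adjusted p was 0.695. Of the kinetochore genes, cenpl measured 0.45 and 0.33 FPKM at day 60, against 1.01, 0.56 and 1.06 FPKM at day 0, with a log2 difference of -0.42 and an adjusted p of 0.589. cenpo measured 1.64 and 1.76 FPKM at day 60, against 3.38, 2.05 and 2.90 FPKM at day 0, with a log2 difference of -0.47 and an adjusted p of 0.552. In both genes the groups did not overlap.

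The gene of the group with the highest mean, cdca4 at 28.0 FPKM, encodes a regulator of transcription. It measured 38.62 and 23.78 FPKM at day 60, against 27.79, 25.70 and 27.75 FPKM at day 0. Its 2 libraries of day 60 lay on either side of day 0, and the log2 difference was 0.16 (interval -0.26 to 0.58), turning to -0.18 when day 60 replicate 1 was left out. The condensin subunits smc2 and smc4, which were named after their values were seen, had their highest means at day 0. smc4 measured 0.88, 1.12 and 1.16 FPKM at day 7, against 1.54, 1.41 and 1.39 FPKM at day 0, without overlap, and its adjusted p was 0.608.

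**Figure D3:**
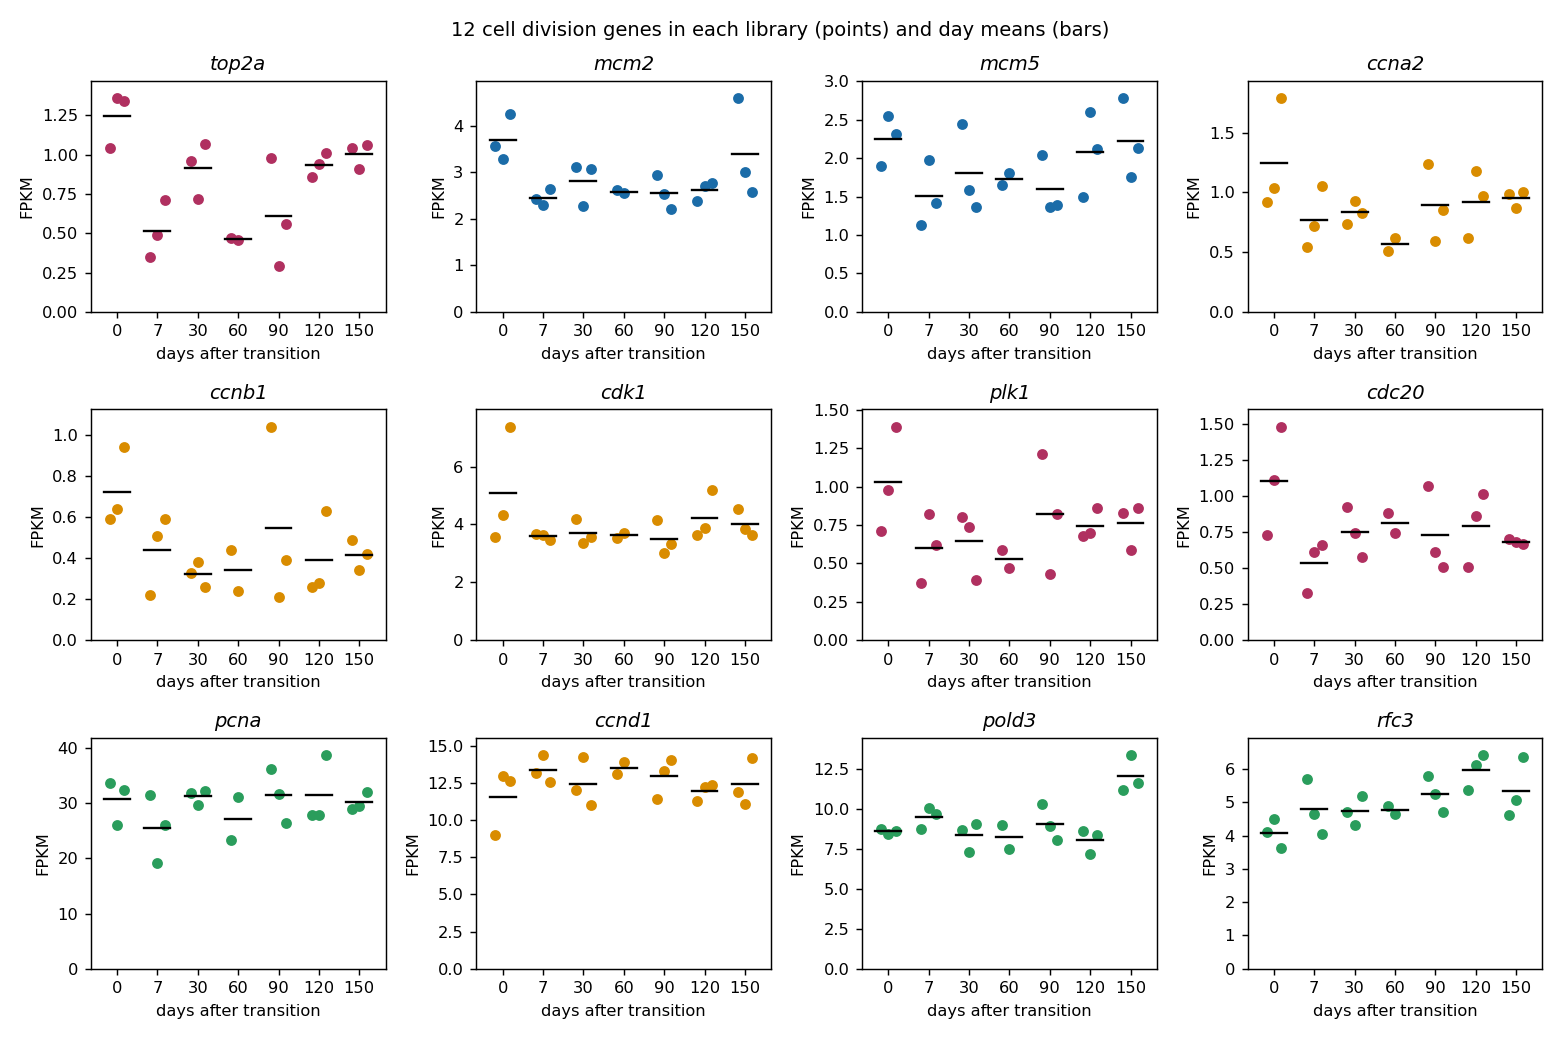
FPKM of 12 division genes (panels) by day after transition, with 1 point per library and a bar at each day mean; colours mark the roles. top2a lies at 1.04 to 1.36 FPKM at day 0 and at 0.35 to 0.71 FPKM at day 7, pold3 is highest in the 3 libraries of day 150, and the single high point of cdk1 is day 0 replicate 3.

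The proliferation antigen Ki-67 and ribonucleotide reductase, which makes DNA precursors, have only locus numbers in the table and were found by protein description, after the values were seen. They are not among the 118. LOC101173508 (Ki-67) measured 0.30, 0.51 and 0.56 FPKM at day 7, against 0.71, 1.01 and 0.99 FPKM at day 0. The groups did not overlap, and all libraries of days 30, 60, 120 and 150 also lay below day 0, at 0.33 to 0.60 FPKM. Of the 3 libraries of day 90, 2 reached 0.87 and 0.83 FPKM. The adjusted p of this entry by limma was 0.36 at day 7 and 0.474 at day 60. LOC101158912, an entry for the small subunit of ribonucleotide reductase, measured 1.04, 0.70 and 1.51 FPKM at day 7, against 2.71, 2.53 and 2.06 FPKM at day 0. Its log2 difference at day 7 was -0.73 with an adjusted p of 0.458, and its highest day mean was 2.62 FPKM at day 30, against 2.43 FPKM at day 0. The other entry for that subunit, LOC101166844, measured 3.33, 3.04 and 2.93 FPKM at day 7, against 3.74, 3.36 and 4.10 FPKM at day 0. An entry for the large subunit, LOC101156995, measured 3.56, 3.61 and 4.32 FPKM at day 7, against 3.97, 4.44 and 4.60 FPKM at day 0. Its highest day mean was 5.46 FPKM, from 4.03 and 6.89 FPKM at day 60, and its adjusted p over all days was 0.546. The other large subunit entry, LOC101156188, measured 0.16, 0.47 and 0.14 FPKM at day 7, against 0.64, 0.48 and 0.69 FPKM at day 0. Reads shared between near-identical copies may be split between such entries. A cyclin D2-like entry, LOC101174910, was found in the same way. It measured 5.79, 8.31 and 7.14 FPKM at day 7, against 8.54, 8.40 and 9.88 FPKM at day 0. Its adjusted p at day 7 by limma was 0.585.

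The day of the highest mean was counted for each gene as a description, with no test. Of the 88 division genes 30, or 34.1%, had it at day 0, against 11% of all genes tested. None of the 30 genes of other functions had it there. By role these were 16 of 42 mitotic genes, 8 of 18 licensing genes, 4 of 11 cyclins and CDKs, and 2 of 17 synthesis genes. The mitotic genes at day 0 include cenpf, whose place in the set leaned on that day. Its day means were 0.477 FPKM at day 0, 0.363 at day 150 and at most 0.287 on the other days. The 4 of the cyclin group were ccna2, ccnb1, ccnb3 and cdk1, and the 8 licensing genes were mcm2, mcm4, mcm5, mcm6, mcm9, orc3, gins1 and gins2. Another 22 division genes, or 25%, had their highest mean at day 150, beside 19% of all genes.

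The lowest mean stood at day 60 in 29 of the 88 division genes, or 33%, against 17.5% of all genes tested, and this mean rests on 2 libraries. Of these 29, 17 were mitotic, and the others were 3 licensing genes, 6 synthesis genes and 3 of the cyclin group. With each library left out in turn, the count at day 0 ran from 22 to 32 and the count at day 60 from 25 to 36. The 25, without day 90 replicate 1, is 28.4% beside 16.7% of all genes. The 36, without day 60 replicate 2, is 40.9% beside 26%, and without day 60 replicate 1 the count was 31, which is 35.2% beside 23.2%. The count of 22 came without day 0 replicate 3, the library with the highest cdk1, ccna2 and plk1, and was 25% of the division genes beside 13.1% of all genes. With both libraries of day 60 compared one by one, 24 of the 88 division genes had both below all 3 libraries of day 0, which is 27.3% beside 11.7% of all genes. At day 7 all 3 libraries lay below day 0 in 12 of the 88, which is 13.6% beside 8.08%, and above it in 6, beside 7.64%. At day 150 they lay above day 0 in 11, which is 12.5% beside 8.72%, and below it in 6, beside 5.25%. At day 60 both lay above it in 5, beside 12.4%. The other days had 5 genes above and 9 below at day 30 (8.86% and 6.31% of all genes), 4 above and 10 below at day 90 (8.04% and 6.04%), and 6 above and 6 below at day 120 (8.62% and 6.03%).

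**Figure D4:**
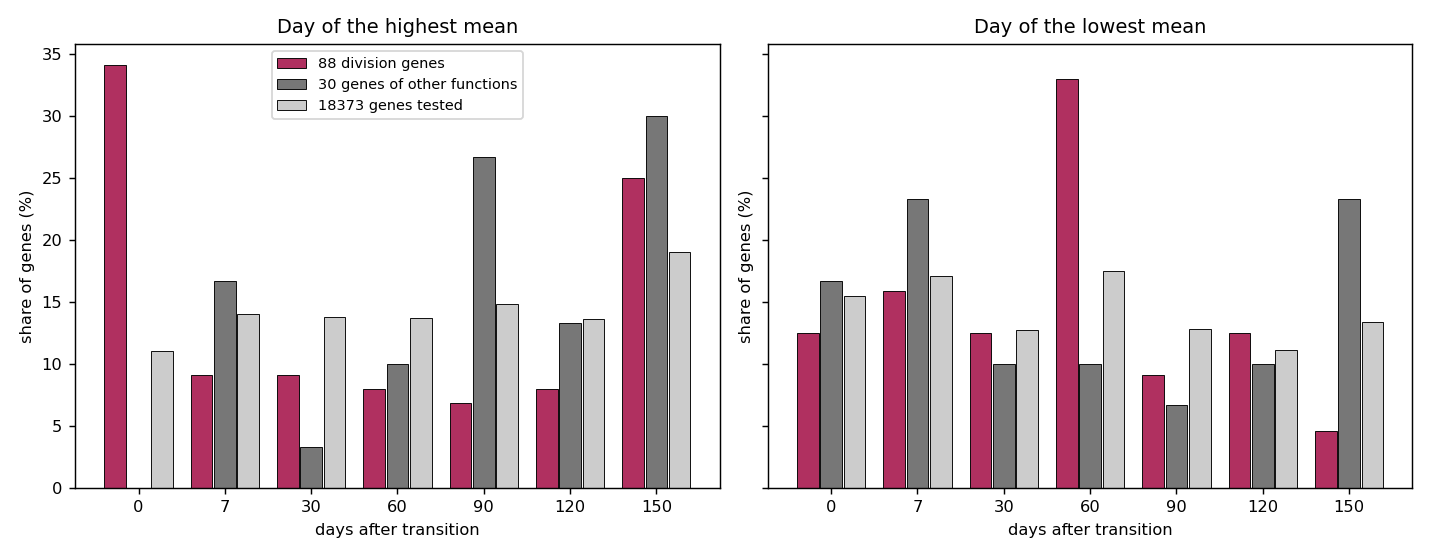
Share of genes, in percent, whose highest day mean (left) or lowest day mean (right) fell on each day, for the 88 division genes, the 30 genes of other functions and all 18373 genes tested. The division genes reach 34.1% at day 0 on the left and 33% at day 60 on the right, against 11% and 17.5% of all genes.

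Summed levels of markers of other cells were set side by side as a description, with no test. Of 13 names of leukocyte and microglia markers 4 were matched, cd74, irf8, ptprc and spi1, and none was at 0 in any library. Over the libraries cd74 averaged 135 FPKM, irf8 5.09, ptprc 3.61 and spi1 1.77, so a sum of the 4 is mostly cd74. Their summed level was 180.92 to 222.93 FPKM at day 0. It lay below that range at day 7 (88.89 to 156.9 FPKM), day 30 (115.2 to 168.11) and day 60 (94.45 to 123.12). It also lay below it at day 120 (105.87 to 152.97 FPKM) and day 150 (102.17 to 179.34). At day 90 it was 131.02 to 216.13 FPKM, and the mean deviation of the list on the log2 scale was 0.29 at day 90, against 0.26 at day 0. The radial glia and progenitor list did not follow that order, with 1045.97 to 1365.49 FPKM at day 7, against 1179.26 to 1382.9 FPKM at day 0, and with its highest sums, 1437.97 to 1910.82 FPKM, at day 120. Within that list cyp19b alone ranged from 74.2 to 490.48 FPKM over the libraries. The mean deviation of the list on the log2 scale was lowest at day 0, at -0.097, against -0.095 at day 7 and 0.13 at day 120. At day 150 the oligodendrocyte list, with 8 of 9 names matched, stood at 181.9 to 354.26 FPKM, against 380.25 to 500.97 FPKM at day 0. The largest part of that sum was mpz, with a mean of 303 FPKM over the libraries. The newborn neuron list, with 10 of 12 names matched, stood at 241.88 to 271.39 FPKM at day 60, against 257.75 to 275.5 FPKM at day 0, and its mean deviation was lowest at day 60, at -0.15, against -0.01 at day 0. The pituitary list stood at 156.92 to 1139.04 FPKM at day 60 and at 2593.51 to 4951.18 FPKM at day 150, against 795.14 to 2250.84 FPKM at day 0. Its largest part was pomc, with a mean of 1303 FPKM over the libraries and a range of 88.56 to 4420.34 FPKM. The part of these cell types in the levels of the division genes was not tested.

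A few genes split the libraries rather than the days. ncapd3, a condensin subunit, stood at 0.16 to 0.37 FPKM in 12 libraries and at 1.15 to 3.42 FPKM in the other 8, with none between. Day 7 and day 150 held low libraries only, while day 0 had 0.17, 1.61 and 3.42 FPKM. Among the 3220 genes whose mean lay within 1 of its own on the log2 scale, 10.4% had a larger spread within days. cenpx, a kinetochore and repair protein gene, was at 0.25 FPKM in day 60 replicate 1 and 0.31 FPKM in day 0 replicate 2, and at 0.86 to 3.02 FPKM in the other 18. mcm3, a subunit of the helicase ring, stood at 1.94 to 2.66 FPKM in 5 libraries and at 3.67 to 5.71 FPKM in 15. These genes were named for their gaps, after the values were seen, and no test was made of them.

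**Figure D5:**
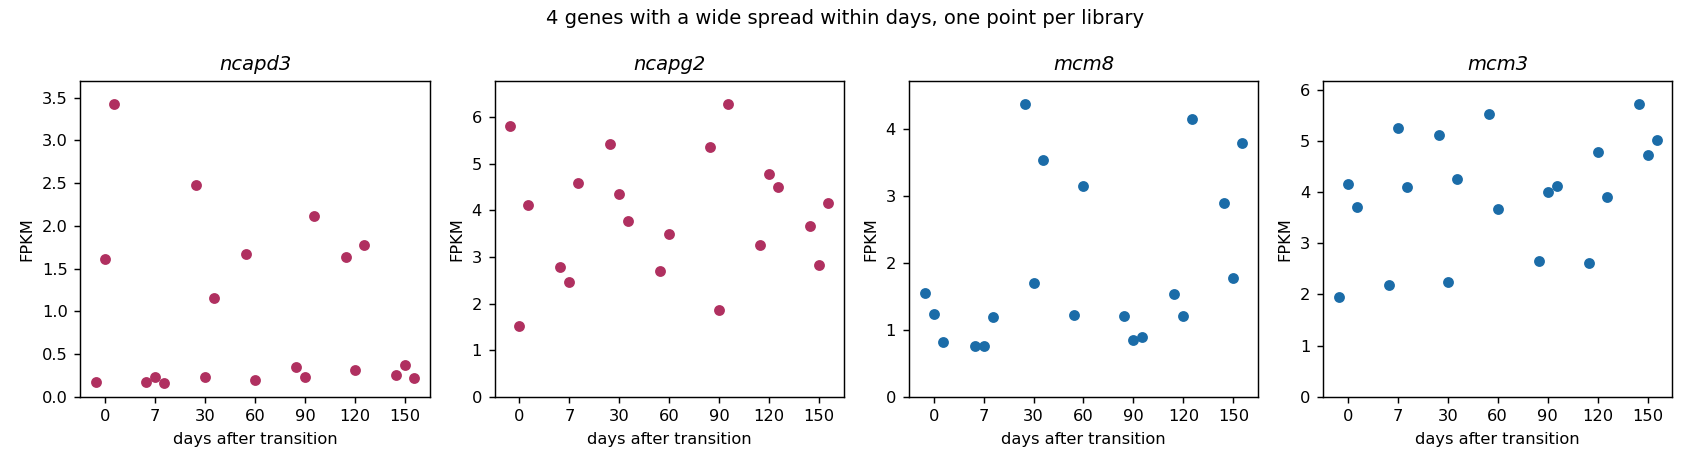
FPKM of ncapd3, ncapg2, mcm8 and mcm3 by day after transition, 1 point per library. ncapd3 has 12 libraries at 0.16 to 0.37 FPKM and 8 at 1.15 to 3.42 FPKM, and mcm8 has 6 libraries at 2.89 FPKM or more, while the points of 1 day are often far apart.

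Other genes of the pathway, from a list of E2F and retinoblastoma factors, CDK inhibitors, further replication enzymes and further spindle and kinetochore proteins, gave the same count. Of 62 matched, 55 had a mean of at least 0.3 FPKM and 0 passed the threshold in any of the 9 tests by limma. At an unadjusted p under 0.05 stood 12 of the 55 at day 7, which is 21.8% beside 8.56% of all genes tested. At days 30, 60, 90, 120 and 150 the counts were 5, 7, 7, 6 and 5, the highest share being 12.7%, beside 6.85% to 9.27% of all genes. Over all days the count was 7, which is 12.7% beside 12.5%, among days 7 to 150 it was 5, which is 9.09% beside 12.5%, and for the slope it was 2, which is 3.64% beside 10.5%. The median log2 difference at day 7 was -0.07, with 37 genes negative, which is 67.3% beside 50.1% of all genes. At day 90 it was -0.11, against 0.01 over all genes tested, with 42 genes negative, which is 76.4% beside 46.4%. The kinetochore gene spc24 averaged 0.753 ± 0.18 FPKM at day 7 and 2.99 ± 0.71 FPKM at day 0 (SD, n = 3 each), a log2 difference of -1.18 with an adjusted p of 0.117. The chromatin remodeller gene hells averaged 0.823 ± 0.19 FPKM at day 7 and 1.55 ± 0.092 FPKM at day 0, with an adjusted p of 0.241. The CDK inhibitor gene cdkn1c, which restrains the cycle, averaged 34.2 ± 0.91 FPKM at day 150 and 26.4 ± 4.6 FPKM at day 0, a log2 difference of 0.37 with an adjusted p of 0.282.

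Genes that work together were compared across the 20 libraries in 5 pairs, by two-sided permutation tests adjusted over the pairs. No pair of genes with unlike functions was compared, so whether such correlations are particular to these genes was not tested. ccna2 and ccnb1, the mitotic cyclins, correlated with a Pearson r of 0.73 (permutation p 0.00027, adjusted 0.00135) and a Spearman rho of 0.68 (adjusted 0.0071). Without the 2 libraries farthest from the median r was 0.71, and between deviations from the day means it was 0.71. top2a and mcm5 had an r of 0.66 (permutation p 0.00201, adjusted 0.00502) and a rho of 0.61 (adjusted 0.012). mcm5 and mcm2 had an r of 0.61 (permutation p 0.00342, adjusted 0.0057) and a rho of 0.59 (adjusted 0.012). cdk1 and ccnb1 had an r of 0.62 (permutation p 0.00533, adjusted 0.00666) and a rho of 0.38 (adjusted 0.0967), and pcna and mcm2 an r of 0.30 (permutation p 0.203) and a rho of 0.39.

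Of the 4 relations that passed, 3 no longer passed with fewer libraries. Without the 2 libraries farthest from the median r was 0.52 for top2a and mcm5, 0.48 for mcm5 and mcm2, and 0.40 for cdk1 and ccnb1, with permutation p-values adjusted to 0.0676, 0.0676 and 0.126. Within days, as deviations from the day means, r was 0.46 for top2a and mcm5 and 0.43 for mcm5 and mcm2. Both had an adjusted permutation p of 0.0717. For cdk1 and ccnb1 r was 0.61, with an adjusted permutation p of 0.0139. The permutation moved these deviations freely between days, although those of the same day cancel out. The p-values within days may therefore be too small, and whether cdk1 and ccnb1 would pass otherwise was not tested.

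The 30 genes of other functions were higher and less spread, with a median SD within days of 0.125 on the log2 scale. cdk19, a kinase of the Mediator complex that regulates transcription, measured 10.82, 10.89 and 10.99 FPKM at day 30, against 13.08, 13.64 and 13.91 FPKM at day 0. The groups did not overlap, and the log2 difference was -0.29 (interval -0.44 to -0.14), with an adjusted p of 0.247. cdk10, also not a cell cycle driver, measured 5.85, 6.44 and 6.57 FPKM at day 30, against 7.79, 7.60 and 7.62 FPKM at day 0, without overlap. Its log2 difference was -0.25 and its adjusted p 0.448. cdc42se2, a binding protein of Cdc42, measured 21.77, 20.72 and 19.95 FPKM at day 7, against 25.51, 25.07 and 24.52 FPKM at day 0. Its groups did not overlap either, the log2 difference was -0.26 (interval -0.41 to -0.10), and the adjusted p was 0.284. poldip2, the gene of this group with the highest mean at 40.6 FPKM, had a slope of -0.03 log2 per 30 days and an adjusted p of 0.63, and the slope was -0.02 without day 150 replicate 2.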

How the data were processed

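The authors deposited 1 table of FPKM values with 2 decimals per gene and library, per the file headers. Libraries were stranded, paired-end and poly(A)-selected after a DNase step, per the labels' protocols. The submitters' processing notes list Bowtie2 (2.2.5) and also RSEM (1.2.12). The genome build is not given in the sources used here. Depth is unknown, since the values do not give back whole reads. All per-sample columns were mapped to samples by their names, and groups are the days in the labels.

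The 18373 genes averaging 0.3 FPKM or more were tested, so that every gene of the set was included. limma (3.58.1) in R (4.3.3) fitted log2(FPKM + 1) with a mean per day and a prior variance that follows the level, with 13 residual degrees of freedom. It gave F tests over all days and over days 7 to 150, each day minus day 0, two-sided, and in a second model the slope per 30 days. The scripts were tested on simulated data. Correlations and their 100000 resamples were computed in numpy (2.4.6), with ranks from scipy (1.17.1), under Python (3.11.15).

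The genes and lists were chosen with earlier results of these data known. Roles follow a list, and mcm3ap, aurkaip1, prima1 and ccnb1ip1 were placed among other functions after the table was seen. Genes named with values were, per role, up to 3 with the smallest F test p over all days, the one with the highest mean, and fixed genes; others are said to be chosen after their values were seen, as were pold2, the genes listed by day of their highest mean and the pathway genes named. For the 28 genes named by rule, the main comparison was picked after the tests, by the smallest unadjusted p from limma. The choice was among each later day against day 0 and the slope. Adjustment was over genes and does not allow for this choice. Pairs with mki67, rrm1 or cdc42 gave no value, because no entry has that symbol. The pair of cdc42 and pcna had been planned as a contrast of unlike functions. Promoter motifs were not analysed here, because no sequence was used.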

Additional observations from a re-analysis of the deposited data

How the results depend on the processing

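Alternatives were a pseudocount of 0.1, a mean of at least 1 FPKM, no filter, quantile normalization, equal totals, median-ratio scaling, a prior without trend, sample weights, spread from the compared days only, slopes over days 7 to 150 or on log2(day + 1), leaving out day 60, day 60 replicate 1 with day 150 replicate 2, or day 90 replicates 1 and 3, and leaving out each library. Under these the number of the 118 genes past the threshold was 0 in 279 of 279 counts, with a smallest adjusted p of 0.076 from limma. With the main settings no test called more than 16 of all 18373 genes, or 0.0871%, so 0 of 118 is near the share of all genes there. The share of all genes under each alternative is not given here, so the 279 counts are not set against it. Of 862 differences and slopes of the 28 named genes, 860 kept their direction and 2 turned. Both were cdca4 at day 60, at -0.179 without day 60 replicate 1, alone or together with day 150 replicate 2, and at 0.498 without day 60 replicate 2. Without the 2 libraries farthest from the median r no longer passed at 0.4 for cdk1 and ccnb1, 0.482 for mcm5 and mcm2, and 0.523 for top2a and mcm5. As deviations from day means it no longer passed at 0.428 for mcm5 and mcm2 and 0.455 for top2a and mcm5. Without day 0, a setting added after seeing the data, it no longer passed at 0.455 for cdk1 and ccnb1. The counts by day of the highest and lowest mean under other scalings and with libraries left out were also chosen after seeing the data, and ran from 22 to 32 at day 0 and from 25 to 36 at day 60. No paired analysis was possible because the labels give the days no shared replicate numbers. Many of these genes lie under 1 FPKM, the depth behind them is unknown, and 3 or 2 libraries a day limit what could be detected.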
